A study of Mus musculus with 14 samples.

Results

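The genes described here are the hepatic alcohol dehydrogenases (Adh), aldehyde dehydrogenases (Aldh), aldo-keto reductases (Akr), aldehyde oxidases (Aox), carboxylesterases (Ces) and flavin monooxygenases (Fmo) of mice with an altered nuclear receptor. They were taken by symbol from the platform annotation: each gene whose symbol was 1 of these 6 family names followed by a digit, with Akr1d1 and Akr1c6 left out. This gave 66 of 19237 measured genes, 20 Aldh, 17 Ces, 13 Akr, 7 Adh, 5 Fmo and 4 Aox genes. A gene with several probe sets was represented by the one with the highest mean over all arrays. Livers came from 7 wild-type mice, labelled LRH-1 WT, and from 7 mice labelled LRH-1 K289R, with 1 Affymetrix array per mouse. LRH-1 is the nuclear receptor encoded by Nr5a2, and K289R replaces a lysine with an arginine, a change that removes an acceptor site for the small modifier SUMO. The mice of both groups were 17 to 19 weeks old, had free access to food and were killed at 7 am. The sources used here do not give strain, zygosity, littermate status, sex or processing batch. The comparison asks how liver transcripts differ when LRH-1 carries this substitution.

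These families carry out much of the first phase of hepatic metabolism outside the cytochrome P450 system. Alcohol dehydrogenases turn alcohols into aldehydes, aldehyde dehydrogenases and aldehyde oxidases turn aldehydes into acids, and aldo-keto reductases run the other way and reduce aldehydes and ketones to alcohols. Carboxylesterases cleave ester drugs and also stored lipid esters in the endoplasmic reticulum, and flavin monooxygenases add oxygen to nitrogen and sulfur atoms. Several members have endogenous substrates such as retinaldehyde, formaldehyde, folate, proline breakdown products and steroids.

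Levels are given as log2(intensity + 1), and differences as K289R minus WT on this log2 scale, with the standard error (SE) of the model. A gene is said to have risen or fallen where limma's Benjamini-Hochberg adjusted p, taken over all 19237 genes, was under 0.05. Levels of different genes are not compared, because each probe set has its own response. Median intensity per array was 39.2 to 43.3 units. Albumin, the defining hepatocyte transcript, ranged from 12.97 to 13.17, and the Y-linked gene Eif2s3y, at 6.96 to 8.12, was above the olfactory receptor median of 3.34 to 3.52 on each array. Earlier work on these values had noted replicates 1 to 4 and 5 to 7 of each genotype as sets the labels do not name. That grouping was not tested here. K289R replicates 6 and 7 had the narrowest spread of values. Differences that rest on those arrays are therefore also given within each set or with the 4 sets as random blocks.

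Of the 66 genes, 9 rose and 13 fell in K289R livers, and 44 did not pass the test. That is 33.3% of the genes, where 19.1% of all genes passed, 8.37% higher and 10.8% lower. The comparison with all genes is uneven, because 53 of the 66 members had a mean above the level of unexpressed genes (5.10, the 95th percentile of olfactory receptor genes), and all 22 that passed were among them. Of the 12191 genes above that level, 28.2% passed, 12.3% higher and 15.9% lower. Of the 53 members above it, 41.5% passed. The members' median difference was 0.017, against 0.048 for all genes, with 34 members above 0 and 32 below. Their median absolute difference was 0.18, against 0.12 for all genes. It was 0.20 for the 53 members above the unexpressed level, against 0.15 for all genes above that level. The WT and K289R values did not overlap for 9 members, 3 higher and 6 lower, where 7.54% of all genes had groups that did not overlap, 2.82% higher and 4.73% lower. Of the members that passed, 2 differed 1.5-fold or more, Aldh1b1 and Akr1e1, where 3.05% of all genes passed with a difference of that size. In whole liver, fewer cells of a type and less RNA per cell cannot be told apart.

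**Figure D1:**
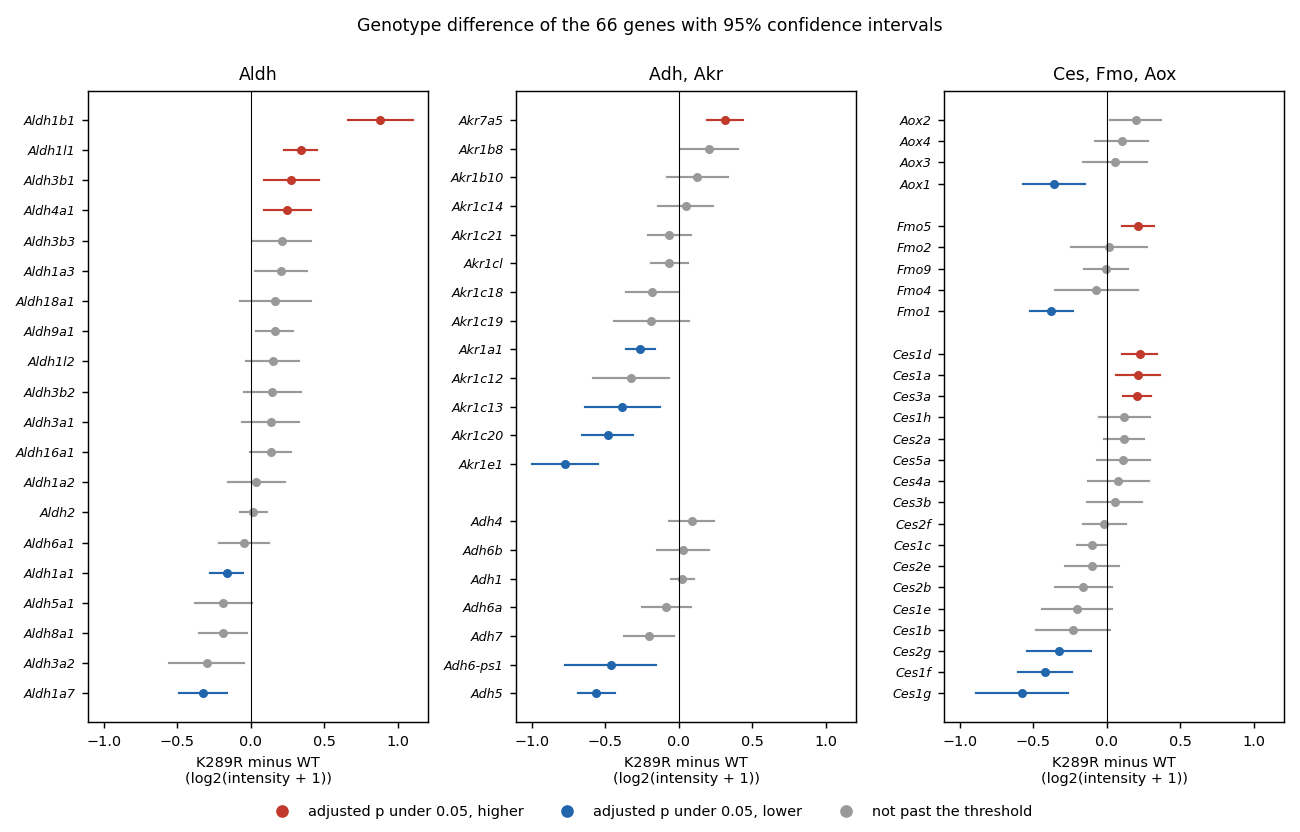
Difference between K289R and WT livers (x axis, log2(intensity + 1) units) for each of the 66 genes (y axis), grouped by family. Points are differences and lines 95% confidence intervals, with n = 7 arrays per genotype. Red marks genes that rose and blue genes that fell at an adjusted p under 0.05, and grey marks the 44 that did not pass. Aldh1b1 at 0.88 and Akr1e1 at -0.77 lie farthest from 0.

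Among the alcohol dehydrogenases, Adh5 fell and the classical ethanol enzyme Adh1 did not pass. Adh5 encodes the class of alcohol dehydrogenase that oxidises glutathione-bound formaldehyde and reduces S-nitrosoglutathione. Its level ran from 10.13 to 10.37 with a median of 10.35 in WT livers, and from 9.58 to 9.88 with a median of 9.73 in K289R livers. Each K289R array was below each WT array. The difference of -0.56 ± 0.06 (SE, n = 7 each) was a level 1.47-fold lower (limma adjusted p = 1.19e-06), and it was alike in replicates 1 to 4 (-0.54) and 5 to 7 (-0.59). Adh1 differed by 0.024 ± 0.038, with a 95% confidence interval of -0.055 to 0.10. Adh4, which acts on longer alcohols and retinol, differed by 0.088 (interval -0.065 to 0.24), and Adh7, the stomach type that also oxidises retinol, by -0.20 ± 0.08 (limma adjusted p = 0.0924). The probe set named for the pseudogene Adh6-ps1 also fell, from 8.95 ± 0.43 to 8.48 ± 0.21 (SD), but its groups overlapped. WT replicate 6, at 8.14, was lower than 6 of the 7 K289R arrays, which ran from 8.12 to 8.71. Adh6a and Adh6b were not above the unexpressed level.

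The aldehyde dehydrogenases held 4 genes that rose and 2 that fell, out of 20, where 8.37% of all genes rose and 10.8% fell. Of all genes above the unexpressed level, as 17 of the 20 were, 12.3% rose and 15.9% fell. Aldh1b1, a mitochondrial enzyme closely related to Aldh2 that handles acetaldehyde and retinaldehyde, had the largest rise of the 66 genes. It ran from 7.47 to 8.01 with a median of 7.64 in WT livers, and from 8.08 to 8.86 with a median of 8.53 in K289R livers. The 2 groups did not overlap, although WT replicate 7, at 8.01, came close to K289R replicate 2, at 8.08. The difference of 0.88 ± 0.11 was a fold of 1.84 (limma adjusted p = 5.11e-06), and it was 0.87 in replicates 1 to 4 and 0.90 in replicates 5 to 7. Aldh2, the main mitochondrial enzyme of acetaldehyde oxidation, differed by 0.019 ± 0.043, with an interval of -0.071 to 0.11.

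The promoter of Aldh1b1 is shown with that of Akr1e1 because they start the genes with the largest rise and the largest fall of the 66. The promoter of Aldh3b1 is shown because it holds the only CAAGGTCA among the members' promoters, the core of the site that LRH-1 and its relative SF-1 are known to bind. The 300 bases are the 250 before and 50 after the annotated start, from RefSeq on GRCm38.p6, with matches to CAAGGNCA (either strand) in capitals. Aldh1b1 lies on the plus strand (chr4:45798772-45799071), and Akr1e1 (chr13:4609115-4609414) and Aldh3b1 (chr19:3929729-3930028) lie on the minus strand.
Aldh1b1: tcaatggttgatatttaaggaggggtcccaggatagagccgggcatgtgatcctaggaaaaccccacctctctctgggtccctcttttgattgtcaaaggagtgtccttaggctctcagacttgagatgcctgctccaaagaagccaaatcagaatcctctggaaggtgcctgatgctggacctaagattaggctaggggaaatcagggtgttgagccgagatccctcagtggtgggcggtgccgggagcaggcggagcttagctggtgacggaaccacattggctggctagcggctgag
Akr1e1: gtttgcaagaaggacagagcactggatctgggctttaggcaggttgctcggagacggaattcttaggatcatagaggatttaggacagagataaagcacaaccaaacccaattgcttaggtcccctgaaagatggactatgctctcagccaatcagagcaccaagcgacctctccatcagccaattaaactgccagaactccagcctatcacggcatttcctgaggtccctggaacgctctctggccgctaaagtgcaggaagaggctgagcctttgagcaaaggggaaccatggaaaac
Aldh3b1: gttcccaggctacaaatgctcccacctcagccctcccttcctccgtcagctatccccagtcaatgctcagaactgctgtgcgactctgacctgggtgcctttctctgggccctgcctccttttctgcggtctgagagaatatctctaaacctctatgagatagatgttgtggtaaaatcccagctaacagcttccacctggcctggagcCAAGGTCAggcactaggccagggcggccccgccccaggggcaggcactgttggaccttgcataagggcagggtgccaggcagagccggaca

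In Aldh3b1 the match begins 41 bases before the start, on the strand of the gene. RefSeq promoters were matched for 53 of the 66 members, 58 sequences in all. CAAGGNCA was found in 6 of these genes (Akr1cl, Akr1b8, Akr1b10, Ces2e, Aldh3b1 and Aldh3b3). Counted by sequence it was in 6 of the 58, and 6.71% of 32851 promoter sequences of this length hold it. CAAGGTCA, which is contained in CAAGGNCA, was in 1.56% of them. Among the members with a promoter, CAAGGNCA was present in 1 of 7 that rose, in 0 of 9 that fell and in 5 of 37 that did not pass. The HNF4A-type site CAAAGTCCA was found in 0 of the members' promoters and in 0.475% of all. A match is only a description of these letters in this window.

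The folate enzyme Aldh1l1, which oxidises formyltetrahydrofolate to tetrahydrofolate and carbon dioxide, rose. It ran from 11.15 to 11.38 with a median of 11.26 in WT livers, and from 11.40 to 11.72 with a median of 11.61 in K289R livers. All K289R arrays were above all WT arrays, with K289R replicate 6 nearest to them. The difference was 0.34 ± 0.05, a fold of 1.27 (limma adjusted p = 1.00e-04). Aldh1l2, its mitochondrial counterpart, was not above the unexpressed level and differed by 0.15 ± 0.09. Together with Adh5, these genes encode enzymes that act on formaldehyde, formate or formyl-folate, and the 2 that passed went in opposite directions.

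Aldh4a1, the mitochondrial enzyme that makes glutamate in proline breakdown, rose by 0.25 ± 0.08 (limma adjusted p = 0.0253). WT livers were tightly grouped, from 9.72 to 9.81 with a median of 9.76, and K289R livers ran from 9.66 to 10.25 with a median of 10.07. Of the 7 K289R arrays, 6 were above all WT arrays and replicate 6 was below them. Aldh18a1, which works in proline synthesis, differed by 0.17 ± 0.12 and did not pass. Further enzymes with defined small substrates did not pass, among them Aldh5a1 of succinic semialdehyde oxidation (-0.19 ± 0.09), Aldh6a1 of valine and thymine breakdown (-0.046 ± 0.082), and Aldh9a1 of carnitine synthesis (0.16 ± 0.06, limma adjusted p = 0.0654).

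Aldh1a1 and Aldh1a7, neighbours on chromosome 19 that encode closely related cytosolic enzymes, both fell. Aldh1a7 fell by 0.32 ± 0.08 (limma adjusted p = 0.00477), from 10.44 ± 0.12 to 10.12 ± 0.18 (SD). Aldh1a1, the retinaldehyde dehydrogenase of adult liver, fell by 0.16 ± 0.05 (limma adjusted p = 0.0407), from 11.95 ± 0.05 to 11.79 ± 0.13 (SD). In each of these genes 5 of the 7 K289R arrays were below all WT arrays. Near-identical copies can bind the same probes, and whether these probe sets share probes was not examined. The differences in Aldh1a7 were -0.15 in replicates 1 to 4 and -0.55 in replicates 5 to 7. The embryonic retinaldehyde dehydrogenase genes Aldh1a2 (0.039 ± 0.094) and Aldh1a3 (0.21 ± 0.08, limma adjusted p = 0.0974) did not pass, and Aldh1a2 was not above the unexpressed level.

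Fatty and lipid-derived aldehydes are the substrates of the Aldh3 enzymes, of which 1 in 5 passed, where 19.1% of all genes passed. Aldh3b1, which oxidises aldehydes from lipid peroxidation, ran from 5.56 to 5.83 with a median of 5.74 in WT livers, and from 5.78 to 6.24 with a median of 5.87 in K289R livers. The groups overlapped, with K289R replicates 4, 6 and 7 at 6.19 to 6.24 and the other 4 K289R arrays at 5.78 to 5.87. It rose by 0.28 ± 0.09 (limma adjusted p = 0.0338). Its neighbours Aldh3b3 and Aldh3b2 differed by 0.21 ± 0.09 and 0.15 ± 0.09 and did not pass. The 2 other probe sets of Aldh3b3 were not above the unexpressed level. Aldh3a2, the fatty aldehyde dehydrogenase of the endoplasmic reticulum, differed by -0.30 ± 0.12 (limma adjusted p = 0.101), with 0.011 in replicates 1 to 4 and -0.71 in replicates 5 to 7.

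**Figure D2:**
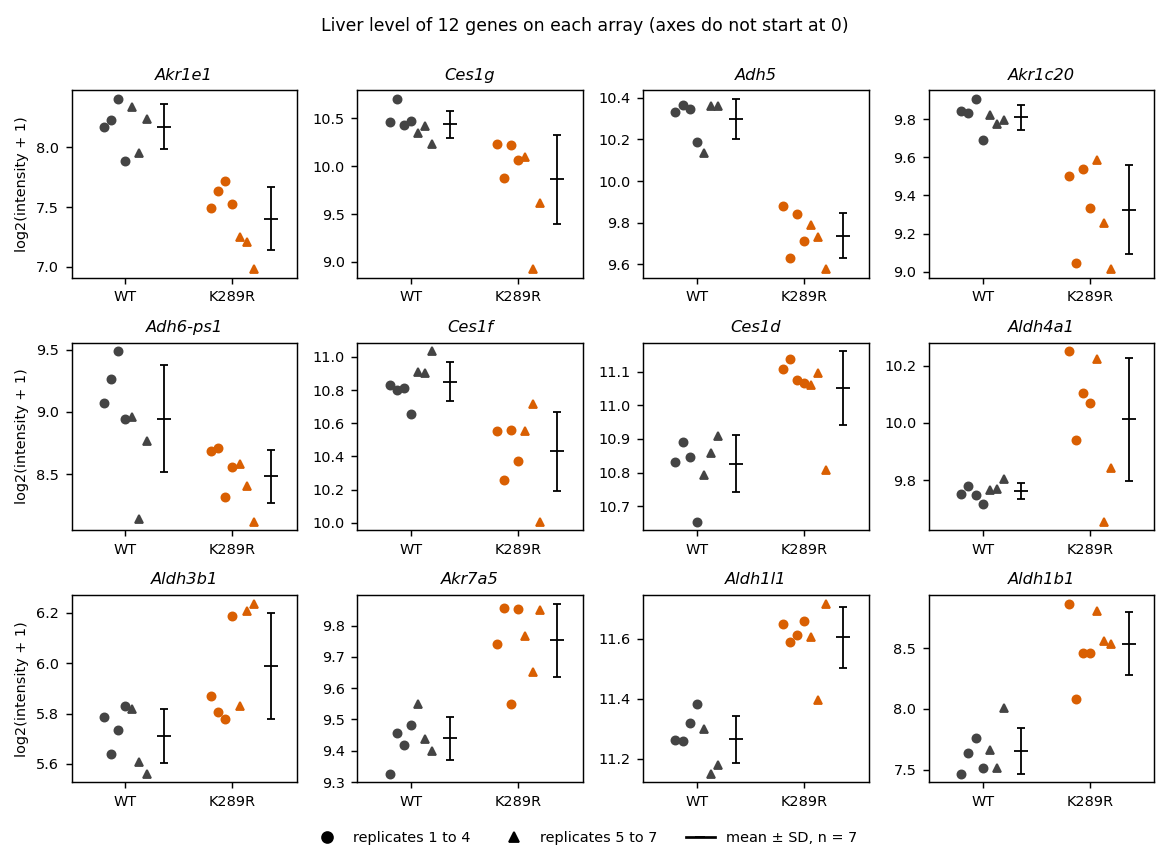
Level of 12 genes (y axis, log2(intensity + 1)) on each of 7 WT and 7 K289R arrays, the 6 that fell most followed by the 6 that rose most. Circles are replicates 1 to 4, triangles replicates 5 to 7, and bars the mean ± SD. The genotypes do not overlap for Akr1e1, Ces1g, Adh5, Akr1c20, Akr7a5, Aldh1l1 and Aldh1b1, and K289R replicate 6 stands low for Ces1g at 8.92.

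Among 13 aldo-keto reductases 4 fell and 1 rose, where 10.8% of all genes fell and 8.37% rose. Of all genes above the unexpressed level, as 10 of the 13 were, 15.9% fell and 12.3% rose. Akr1e1, which reduces anhydrofructose, a product of glycogen breakdown, had the largest fall of the 66 genes. It ran from 7.89 to 8.41 with a median of 8.23 in WT livers, and from 6.98 to 7.72 with a median of 7.49 in K289R livers. No array of one genotype entered the range of the other. The difference of -0.77 ± 0.11 was a level 1.71-fold lower (limma adjusted p = 3.13e-05). It measured -0.58 in replicates 1 to 4 and -1.03 in replicates 5 to 7, and the test of that change between sets gave an adjusted p of 0.499 (limma interaction).

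Akr1c20, one of the steroid-reducing Akr1c enzymes, fell by 0.48 ± 0.08 (limma adjusted p = 2.86e-04). WT livers lay between 9.69 and 9.91 with a median of 9.82, and K289R livers between 9.01 and 9.59 with a median of 9.33. The groups did not overlap, and the K289R arrays were more widely spread. Akr1c13 fell by 0.38 ± 0.12 (limma adjusted p = 0.0318), with -0.15 in replicates 1 to 4 and -0.69 in replicates 5 to 7. Akr1a1, the general aldehyde reductase that also serves ascorbate synthesis in mice, fell by 0.26 ± 0.05, from 11.06 ± 0.05 to 10.80 ± 0.07 (SD), again with no overlap (limma adjusted p = 3.70e-04).

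The 1 aldo-keto reductase that rose was Akr7a5, which reduces succinic semialdehyde and aflatoxin dialdehyde. It ran from 9.33 to 9.55 with a median of 9.44 in WT livers, and from 9.55 to 9.86 with a median of 9.77 in K289R livers. The groups touched at 9.55 without crossing. The difference was 0.31 ± 0.06, a fold of 1.24 (limma adjusted p = 6.32e-04). The aldose reductase relatives Akr1b8 and Akr1b10 differed by 0.20 ± 0.09 and 0.13 ± 0.10 and did not pass. Akr1b8 differed by 0.40 in replicates 1 to 4 (limma adjusted p = 0.0157 among those arrays) and by -0.056 in replicates 5 to 7.

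Among carboxylesterases, 3 of 17 rose and 3 fell, where 8.37% of all genes rose and 10.8% fell. Of all genes above the unexpressed level, as 15 of the 17 were, 12.3% rose and 15.9% fell. Members of the same cluster moved both ways. Ces1g, a lipid-cleaving esterase of liver and intestine, ran from 10.23 to 10.70 with a median of 10.43 in WT livers, and from 8.92 to 10.23 with a median of 10.07 in K289R livers. The groups met at 10.23 without crossing, and K289R replicate 6 stood below the rest. The difference was -0.58 ± 0.15, a level 1.49-fold lower (limma adjusted p = 0.00923), and -0.42 without that array. Ces1f, its neighbour, fell by 0.42 ± 0.09 (limma adjusted p = 0.0017). It ran from 10.66 to 11.03 with a median of 10.83 in WT livers and from 10.01 to 10.72 with a median of 10.55 in K289R livers, where 6 of 7 arrays were below all WT arrays.

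Ces1d, the hydrolase that mobilises stored triacylglycerol in the endoplasmic reticulum, rose. WT livers lay between 10.65 and 10.91 with a median of 10.85, and K289R livers between 10.81 and 11.14 with a median of 11.08. Of the K289R arrays, 6 were above all WT arrays and replicate 7 was inside their range. The difference was 0.22 ± 0.06, a fold of 1.17 (limma adjusted p = 0.00735). Ces3a rose by 0.20 ± 0.05 (limma adjusted p = 0.0029), from 12.23 ± 0.06 to 12.43 ± 0.08 (SD). Ces1a rose by 0.21 ± 0.07 (limma adjusted p = 0.0401), but its means of 5.14 and 5.35 were close to the unexpressed level. Ces2g fell by 0.33 ± 0.11 (limma adjusted p = 0.0345). The plasma esterase gene Ces1c differed by -0.099 ± 0.048 (interval -0.20 to 0.0017), and Ces1e, whose product retains beta-glucuronidase in the endoplasmic reticulum, by -0.20 ± 0.11 (limma adjusted p = 0.246). The esterases of the Ces1 group are close copies of each other, and whether their probe sets share probes was not examined.

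Of the flavin monooxygenases, Fmo1 fell and Fmo5 rose. Fmo1, an enzyme of broad range for nitrogen- and sulfur-containing drugs, fell by 0.38 ± 0.07 (limma adjusted p = 5.82e-04). Its WT arrays lay between 10.47 and 10.78 and its K289R arrays between 10.02 and 10.37, with no overlap. Fmo5, which inserts oxygen beside carbonyl groups, rose by 0.21 ± 0.05 (limma adjusted p = 0.00586), and 5 of 7 K289R arrays were above all WT arrays. Fmo4 (-0.070 ± 0.135), Fmo2 (0.014 ± 0.125) and Fmo9 (-0.007 ± 0.072), the last not above the unexpressed level, did not pass.

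Aldehyde oxidases are molybdenum enzymes that turn aldehydes and nitrogen heterocycles into oxidised products. Aox1 fell by 0.36 ± 0.10 (limma adjusted p = 0.0162), from 8.92 ± 0.17 to 8.56 ± 0.25 (SD), and 4 of the 7 K289R arrays were below all WT arrays. Aox3, the main hepatic form of the mouse, differed by 0.056 ± 0.104, with an interval of -0.16 to 0.27. Aox2 differed by 0.20 ± 0.08 (limma adjusted p = 0.117) and Aox4 by 0.10 ± 0.09, and neither was above the unexpressed level.

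Many of these genes lie beside their relatives. With neighbours defined as members at most 5 positions apart in the order of protein-coding genes of GRCm38.p6, 50 members fell into such clusters and 14 stood alone. The pseudogene Adh6-ps1, on chromosome 3 too and lower as given above, and Adh6b, which did not match that table, were not placed. The chromosome 13 cluster of the Akr1c genes and Akr1e1 held 8 members, of which 3 fell, 0 rose and 5 did not pass. In 7 of these 8 members the difference was below 0, Akr1c14 being the exception at 0.049. Akr1c13, 1 of the 3 that fell, did not pass with the sets as random blocks (limma adjusted p = 0.0831). For comparison with each cluster, 10.8% of all genes fell and 8.37% rose. Among those above the unexpressed level 15.9% fell and 12.3% rose. Akr1c18 (-0.18) and Akr1c21 (-0.064) were not above the unexpressed level. Akr1c19 differed by 0.071 in replicates 1 to 4 and by -0.53 in replicates 5 to 7. Whether probe sets of the Akr1c genes share probes was not examined. The first chromosome 8 cluster, Ces1a to Ces5a, held 9 members with 2 that rose and 2 that fell. The second, Ces2a to Ces4a, held 8 members with 1 that rose and 1 that fell. In the chromosome 3 cluster of 5 protein-coding Adh genes, Adh5 alone passed. On chromosome 4, Akr7a5 and Aldh4a1 were neighbours by this definition, although of different families, and both rose.

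**Figure D3:**
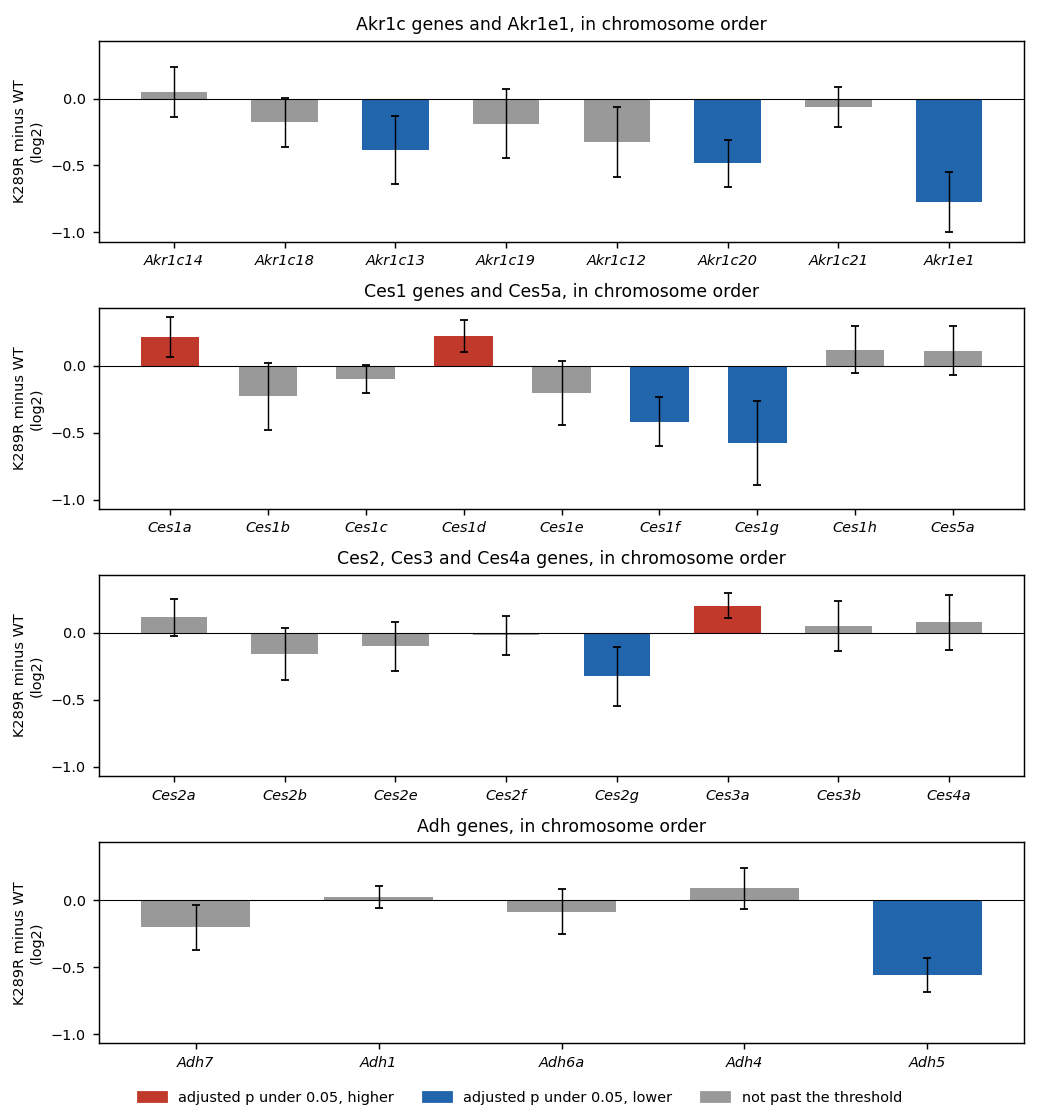
Difference between K289R and WT livers (y axis, log2 units) for members in 4 gene clusters, drawn in chromosome order at equal spacing. Bars are differences and lines 95% confidence intervals, n = 7 arrays per genotype. The Akr1c and Akr1e1 cluster holds 3 blue bars and no red one, and each Ces cluster holds bars of both colours. Of all genes, 10.8% fell and 8.37% rose.

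The differences were also computed within each set of arrays. All 22 members that passed had the same sign in replicates 1 to 4 and in replicates 5 to 7, as did 99.9% of all genes that passed. Of the 44 that did not pass, 19 had opposite signs in the 2 sets. The matching share among all genes that did not pass was not computed. Of the 13 that fell, 12 had the larger fall in replicates 5 to 7, against 81.8% of all genes that fell. The interaction of genotype and set passed for 0 of 66 members (lowest limma adjusted p = 0.142), and for 0.114% of all genes. With the 4 sets as random blocks, 13 of the 66 members passed, 5 higher and 8 lower, where 11.3% of all genes passed. All 13 were among the 22, and over all genes 2176 passed this fit, against 3678 in the main fit. The 13 were Adh5, Akr1a1, Akr1c20, Akr1e1, Akr7a5, Aldh1a7, Aldh1b1, Aldh1l1, Ces1f, Ces1g, Ces3a, Fmo1 and Fmo5. In replicates 1 to 4 alone 14.1% of all genes passed, and 9 members were higher and 8 lower. In replicates 5 to 7 alone 9.16% passed, and 3 members were higher and 12 lower. The SD was larger in K289R than in WT livers for 51 of the 66 members, and for 60.4% of all genes.

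**Figure D4:**
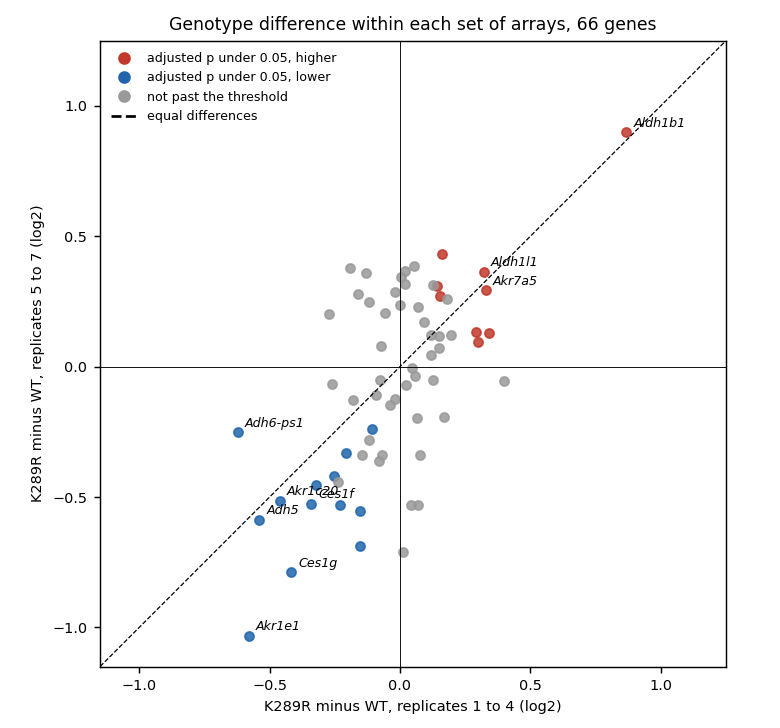
Difference between K289R and WT livers (log2 units) in replicates 1 to 4 (x axis) and in replicates 5 to 7 (y axis), 1 point per gene for the 66 genes. The dashed line marks equal differences. Adh5, Akr7a5, Aldh1b1 and Aldh1l1 lie near the line, and Akr1e1 lies below it at -0.58 and -1.03.

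The calls of 7 members depended on single arrays. Leaving out each array in turn ended the call of Ces1a in 11 of 14 fits, of Aldh1a1 and Ces2g in 8, of Adh6-ps1 and Akr1c13 in 7, of Aldh3b1 in 6 and of Aldh4a1 in 3. Their highest limma adjusted p in these fits was 0.0884 for Ces1a without WT replicate 5, 0.089 for Aldh1a1 without WT replicate 2, 0.0744 for Ces2g without WT replicate 3, and 0.0794 for Adh6-ps1 and 0.072 for Akr1c13, both also without WT replicate 3. For Aldh3b1 it was 0.076 without K289R replicate 4, and for Aldh4a1 it was 0.0574 without K289R replicate 5. The differences of these genes kept their sign in each fit. The other 15 members that passed did so in all 14 fits. Median centring of the arrays ended the calls of Ces1a, Ces1d, Fmo5, Aldh3b1, Aldh4a1, Aldh1a1 and Ces2g, at adjusted p of 0.0516 to 0.139.

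Genes that work with these enzymes were taken from lists. Among 26 genes of retinoid handling, 2 rose and 5 fell, with a median difference of 0.083. Over all genes 8.37% rose and 10.8% fell. Among those above the unexpressed level 12.3% rose and 15.9% fell, and 3 of the 26 were not above it. The fallers included enzymes that interconvert retinol and retinaldehyde: Dhrs4 (-0.37 ± 0.07, limma adjusted p = 7.66e-04), Rdh7 (-0.29 ± 0.06) and Dhrs9 (-0.43 ± 0.11). Rbp4, which carries retinol in plasma, rose by 0.13 ± 0.04 (limma adjusted p = 0.02), while Lrat, which stores retinol as ester, differed by -0.10 ± 0.16. With random blocks for the sets, 2 of the 7 passed, Dhrs4 and Rdh7.

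Of 9 genes of molybdenum enzymes and their cofactor, 3 rose and 2 fell. Over all genes 19.1% passed, and 28.2% of those above the unexpressed level. With random blocks the same 5 of the 9 passed, where 11.3% of all genes passed. Mocos, the sulfurase that activates aldehyde oxidases and xanthine dehydrogenase, fell by 0.46 ± 0.09 (limma adjusted p = 7.92e-04), as did Mocs2 of cofactor synthesis by 0.53 ± 0.09 (limma adjusted p = 1.24e-04). Mocs1, which starts that synthesis, rose by 0.38 ± 0.08, and Mtarc1 and Mtarc2, which encode amidoxime-reducing enzymes, rose by 0.28 ± 0.04 and 0.35 ± 0.08. Xanthine dehydrogenase, Xdh, differed by 0.052 ± 0.072.

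Among 20 other reductases and hydrolases, 3 rose and 6 fell. Hsd11b1, which regenerates active glucocorticoid, fell by 0.71 ± 0.06 (limma adjusted p = 1.29e-07), the serum esterase gene Bche by 0.75 ± 0.11, and Aadac, a microsomal ester hydrolase, by 0.51 ± 0.05. Pnpla2, the triglyceride lipase of lipid droplets, rose by 0.38 ± 0.10. With random blocks 3 of the 9 passed, Hsd11b1, Bche and Aadac, while Pnpla2 (limma adjusted p = 0.0728), Cyb5a, Ephx2, Cbr4, Pon2 and Lipa did not. Of 13 genes for regulators of xenobiotic and redox response, 4 rose and 0 fell: Ppara, Nr0b2, Nr1i2, which encodes the xenobiotic receptor PXR (0.37 ± 0.09, limma adjusted p = 0.00518), and Rxra, the partner of many nuclear receptors (0.27 ± 0.08). With random blocks 2 of the 4 passed, Ppara and Nr1i2, while Nr0b2 (limma adjusted p = 0.0625) and Rxra (0.116) did not. The difference in Nr1i2 was 0.58 in replicates 1 to 4 and 0.098 in replicates 5 to 7. Over the 4 lists, 12 of 68 genes rose and 13 fell, where 19.1% of all genes passed. Among all genes above the unexpressed level 28.2% passed, and 4 of the 68 were not above it.

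Markers of other cells and of liver zones were read beside these results. For comparison, 19.1% of all genes passed, and 28.2% of those above the unexpressed level. Of 6 Kupffer cell markers 1 rose and 2 fell (summed intensity 1373 to 1634 in WT, 917 to 1645 in K289R). Of 6 stellate cell markers 2 rose (summed intensity 732 to 896 in WT, 780 to 937 in K289R), of 6 sinusoidal endothelial markers and of 5 cholangiocyte markers 0 passed, and of 5 adipocyte markers 1 rose. Of 7 pericentral markers 1 rose and 1 fell (12675 to 13703 against 12090 to 14967), and of 3 measured periportal markers 2 rose (7763 to 9717 against 8815 to 11144). Of 6 hepatocyte markers 1 rose, with summed intensities of 33803 to 35731 in WT and 33027 to 37342 in K289R livers. Of 5 male-biased genes 1 rose and 1 fell, and of 2 measured female-biased genes 0 passed. With the sets as random blocks, 1 of the 3 Kupffer, 0 of the 2 stellate, 1 of the 2 pericentral, 1 of the 2 periportal and 1 of the 2 male-biased calls held, as did those of the hepatocyte and adipocyte markers. The part of cell makeup and zone in the differences of the 66 genes was not tested.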

How the data were processed

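Liver RNA (100 ng of total RNA per mouse, per the labels' protocols) was hybridised to Affymetrix whole-transcript arrays. The deposited values are probe set intensities on a linear scale, and the submitters' processing notes name Affymetrix Expression Console as the program the authors used. Its version, the background correction, the scaling between arrays and the genome build are not given in the sources used here. Arrays carry no read depth, so the number of arrays limits the precision.

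Of 35556 probe sets, 21456 had 1 gene symbol in the platform annotation, 2376 had several and were left out, and 11724 were unnamed here. Symbols were updated by Entrez identifier in the RefSeq table of GRCm38.p6 (21277 matched, 2 replaced). A gene without a probe set of its single name was not analysed here.

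Log2(intensity + 1) was fitted with limma 3.58.1 in R 4.3.3, with genotype as the 1 term, an intensity trend in the prior variance, 2-sided tests and Benjamini-Hochberg adjustment over 19237 genes at 0.05. A pseudocount of 1 understates the change of dim genes. The procedure was tested on simulated data. Tests measure the spread between mice of a group as labelled biological replicates.

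The members, lists, array sets and tests were chosen with earlier results of these data known. Named were all members past the threshold, members with groups that did not overlap, the most precise member of each family that did not pass, and up to 4 called genes per list; other members and list genes were named after their values were seen. Same-numbered replicates deviated together in some pairs only (correlation -0.30 to 0.56, over 0.1 in 3 of 7 pairs). They are not stated to pair mice, so the replicate number was a block only in an alternative fit.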

Additional observations from a re-analysis of the deposited data

Results flagged for a closer look

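Among the 28 named members, 56 groups of 7 arrays were searched for a single array far from the others, by the gap to its nearest neighbour as a share of the whole range, against Dixon's critical value for 7 values. Chance alone flags about 1 in 20 groups, and 3 were found. K289R replicate 6 was low for Aldh1l1, at 11.40 against 11.59 for the nearest array. K289R replicate 7 was low for Ces1d, at 10.81 against 11.06. WT replicate 7 was low for Akr1cl, at 3.73 against 3.87, a gene not above the unexpressed level.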

How the results depend on the processing

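The signs of the 22 members that passed were the same under the 13 alternatives beside single left-out arrays. The 9 members that rose became 4 with median centring, 5 with sets as random blocks and 3 in replicates 5 to 7 alone, and the 13 that fell became 8 with random blocks and 8 in replicates 1 to 4 alone. Over all genes, 2176 passed with random blocks and 1762 in replicates 5 to 7, against 3678, and 12 of the partner genes in each of these, against 25. Leaving out 1 array gave 7 to 9 members that rose, 9 to 14 that fell, 3082 to 3857 genes in all and 21 to 25 partner genes. Of all genes that passed, 43.8% were higher, against 54.3% with quantile normalization, 30.6% with median centring, 20.6% in replicates 5 to 7 and 51.0% without K289R replicates 6 and 7, an alternative chosen after seeing the data that left 8 members higher and 9 lower. With the replicate block 8 members rose and 15 fell, and Ces1a lost its call (adjusted p = 0.058). The replicate numbers are not stated to pair mice. Quantile normalization gave 12 higher and 13 lower members. Of the 44 members that did not pass, 19 differed in opposite directions in the 2 sets of replicates, with no matching count made for all genes. Of the most precise uncalled member of each family, Adh1 turned to -0.029 with quantile normalization, -0.014 with median centring and -0.0033 in replicates 5 to 7, Aldh2 to -0.019 with median centring and -0.035 in replicates 5 to 7, and Fmo9 to 0.081 in replicates 5 to 7, with -0.043 to 0.021 when 1 array was left out. Genes near the unexpressed level can hide differences, since their signal barely exceeds background.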
